A study of Gallus gallus with 32 samples.

Results

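The comparison of male chickens fed a comfrey supplement with males on a control diet rested on 16 of the 32 arrays of the study, 8 from each diet. The birds were chosen by the labelled sex and diet alone, and the other 16 arrays are the females of the same 2 diets. Each array measured RNA from the blood of 1 broiler chicken, a strain bred for meat. The labels list an age of 32 with months as the unit for every bird, a value that is unusual for broilers and could not be checked here, and call the tissue whole blood cells. RNA came from blood clots ground in liquid nitrogen. No source used here gives the supplement's dose, its duration or the housing of the birds. The control and comfrey-fed males differ in the labels by diet only, and a bird is 1 replicate.

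Comfrey is a leafy plant of the borage family that is rich in allantoin and also carries pyrrolizidine alkaloids, compounds that liver enzymes turn into reactive products able to bind DNA and protein. Bird red cells keep their nucleus, and they and their immature forms supply most of the RNA of avian blood, beside thrombocytes, lymphocytes, heterophils and monocytes. A whole-blood profile therefore mixes all of these cells, and fewer cells of a type cannot be told apart from less RNA per cell. The comparison addresses whether the supplement changed blood gene expression in males.

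The values are log2 signals of probe sets, and a difference of 1 is a doubling. Of 17894 probe sets with values, 10264 carried 1 gene symbol, and 9286 genes could be followed through their brightest probe set. Pairs of male arrays correlated between 0.960 and 0.983, and array medians lay between 6.51 and 6.59. Red cell markers were present in all 16 males. HBAD, an alpha-type globin, ranged from 13.68 to 13.97, and SLC4A1, the anion exchanger of the red cell membrane, from 10.83 to 12.29. TUBB1, the beta-tubulin of thrombocytes, ranged more widely, from 8.55 to 11.18, as did the thrombocyte surface glycoprotein GP9, from 5.71 to 9.75. The T cell receptor subunit CD3E ranged from 8.82 to 10.01 and the class II chaperone CD74 from 10.14 to 11.34. Of genes typical of liver, FGB stayed between 4.33 and 4.97 while APOA1 reached 11.17. HINTW, a gene of the female-specific W chromosome, lay between 4.87 and 5.54 in the 16 males.

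No probe set passed an adjusted p of 0.05 in males. This count was 0 of 17894 (0%) by limma with Benjamini-Hochberg adjustment, and the lowest adjusted p was 0.0763. At an unadjusted p under 0.05, 913 probe sets (5.1%) were higher on comfrey and 708 (3.96%) were lower, together 1621 where the threshold itself gives 894.7. The balance of these directions was not stable, with 892 higher and 1160 lower when bird number was a covariate and 865 and 1013 with birds 1 to 16 and 17 to 32 as blocks. Without bird 4, on comfrey, it was 995 and 1177. The median standard error of a difference was 0.116, and the 95% interval stayed within a log2 difference of 1 for 95.5% of probe sets and within 0.5 for 74.1%. Only 19 probe sets had a mean difference over 1, 11 higher and 8 lower on comfrey, and 13 of the 19 had a signal below the median of all probe sets.

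One control male, bird 31, stood apart, and it had been singled out beforehand for its very high interferon genes. Its signal was the highest of the 16 males by more than 1 in 133 probe sets, against 0 to 11 for each other male. Without it the count was again 0 (0%) by limma, with a lowest adjusted p of 0.104, and 717 (4.01%) higher and 566 (3.16%) lower probe sets at an unadjusted p under 0.05. Of the 1621 probe sets above, 1110 kept an unadjusted p under 0.05 and their sign without bird 31. Values below are for all 16 males, and a printed gene difference or list median is given also without bird 31 where that moved it by over 1.5 times or turned its sign.

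Full separation of the diets was rare. In 2 probe sets (0.0112%) every comfrey-fed male was above every control male, and in 0 (0%) every comfrey-fed male was below. One of the 2 carries no gene name. Its signal ran from 5.95 through a median of 6.33 to 6.70 on comfrey and from 5.46 through 5.75 to 5.89 in controls. The difference of 0.66 ± 0.10 (SE, n = 8 and 8) had the lowest adjusted p of the comparison, 0.0763 by limma. The other was YME1L1, a protease of the mitochondrial inner membrane, at 11.45, 11.49 and 11.62 (lowest, median and highest) on comfrey against 11.19, 11.38 and 11.44 in controls. Its difference was 0.14 ± 0.056 (SE), with an adjusted p of 0.524 by limma. Without bird 31, the lowest control, 3 probe sets were fully separated upward and 1 downward.

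The diet difference moved with signal level. Bright probe sets, those above the median signal, had differences above 0 in 58.3% of cases (median 0.029), and dim ones, those below it, in 37.5% (median -0.049). In 10 bins of equal size from dim to bright, the male median difference was lowest in bin 4, at -0.0627, and highest in bin 8, at 0.055. It was -0.0213 in bin 1 and 0.0251 in bin 10. Females had -0.0254 in bin 4 and 0.0051 in bin 8. Their lowest and highest medians were -0.0384 in bin 1 and 0.0167 in bin 10. The gap within an array between the median of the bright and that of the dim probe sets was 2.77, 2.94 and 3.05 (lowest, median and highest) in comfrey-fed males and 2.73, 2.81 and 2.98 in controls. The groups overlapped, and the difference of 0.084 had an exact two-sided permutation p of 0.101 over 12870 splits. Lists of strongly expressed genes sit among the bright probe sets, so list medians were also computed with this gap as a covariate, a choice made after the data were seen.

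**Figure D1:**
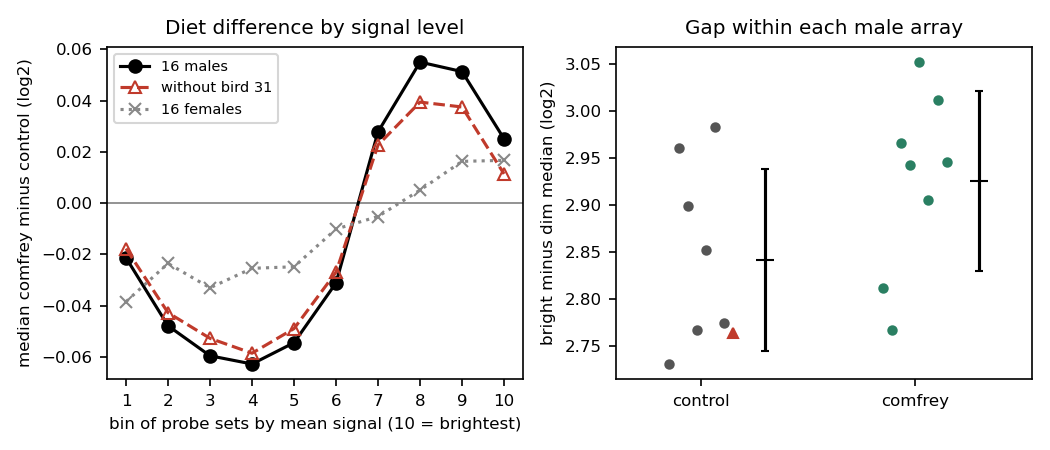
Left, the median comfrey minus control difference (log2) in each of 10 bins of probe sets by mean signal, for 16 males, for the males without bird 31 and for 16 females. Right, the gap between bright and dim medians (log2) in each male array, with bird 31 as a triangle and group means ± SD (n = 8) as bars. The male median runs from -0.0627 in bin 4 to 0.055 in bin 8, and the gaps of the 2 diets overlap.

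Among bright named genes, the smallest p-value on the higher side belonged to FAM174A, a small membrane protein. Its signal was 7.20, 7.41 and 7.88 (lowest, median and highest) in comfrey-fed males and 6.72, 6.92 and 7.27 in controls. Of the 8 comfrey-fed males, 7 lay above the highest control. The difference was 0.52 ± 0.095 (SE, n = 8 and 8), a 1.43-fold difference, with an adjusted p of 0.379 by limma.

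The next smallest p-value belonged to ATG7, an autophagy gene, and ATG4C of the same pathway was also among the 12 genes. Autophagy wraps worn cell parts in a double membrane and hands them to the lysosome, and developing red cells use it to clear organelles. ATG7, which activates the ubiquitin-like proteins of this pathway, had 8.64, 8.71 and 8.97 (lowest, median and highest) on comfrey and 8.05, 8.31 and 8.71 in controls. The difference was 0.44 ± 0.091 (SE), with an adjusted p of 0.522 by limma, and 4 of 8 comfrey-fed males exceeded all controls. ATG4C, a protease that trims the ATG8 proteins, differed by 0.36 ± 0.084 (SE), from 7.71 to 8.06 on comfrey against 7.22 to 7.79 in controls. Both groups overlapped only in part, since 6 of 8 comfrey-fed males lay above every control for ATG4C.

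SELENOP1, which encodes the selenium carrier selenoprotein P, had 8.98, 9.33 and 9.66 (lowest, median and highest) on comfrey and 8.79, 8.91 and 9.16 in controls. In 7 of 8 comfrey-fed males the signal exceeded every control. The difference was 0.44 ± 0.096 (SE), with an adjusted p of 0.522 by limma. EMC2, a subunit of the complex that inserts membrane proteins into the endoplasmic reticulum, differed by 0.45 ± 0.10 (SE), with 8.96, 9.09 and 9.28 against 8.25, 8.72 and 9.01. Again 7 of 8 comfrey-fed males were above all controls.

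The other leading genes on the higher side had varied roles. TRPV1, a heat-gated cation channel, differed by 0.42, and SNAPC3, a subunit of the complex that starts transcription of small nuclear RNAs, by 0.39. HSPA13, a member of the heat shock protein 70 family, differed by 0.34. TMEM43 of the inner nuclear membrane and TMEM167A of the secretory pathway each differed by 0.39, and RALGPS1, an exchange factor for Ral GTPases, by 0.56. PRICKLE1, a planar cell polarity protein, had the largest difference on the higher side, 1.38 ± 0.34 (SE). Its spread was wide, from 6.44 through 8.28 to 9.24 on comfrey and from 6.15 through 6.80 to 8.05 in controls, so the groups overlapped. The adjusted p of each of these genes was 0.522 by limma.

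On the lower side the smallest p-value of a bright gene belonged to the microRNA gene MIR1774, at 7.60, 8.00 and 8.15 (lowest, median and highest) on comfrey and 8.10, 8.34 and 8.57 in controls. Among the comfrey-fed males 6 of 8 were below every control. The difference was -0.39 ± 0.093 (SE), with an adjusted p of 0.522 by limma. SOCS3, the feedback inhibitor of cytokine signalling through JAK and STAT, had 7.29, 7.55 and 8.13 on comfrey and 7.80, 8.02 and 8.37 in controls. Its difference was -0.42 ± 0.12 (SE), and -0.37 without bird 31, the highest control. IRF5, a transcription factor that acts downstream of Toll-like receptors, differed by -0.34 ± 0.10 (SE), with 4 of 8 comfrey-fed males below all controls.

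C4, a complement component, was read by 13 probe sets. The probe set with the smallest p differed by -0.35 ± 0.11 (SE), and 1 of the 13 had the opposite sign. Signals ran from 10.02 to 10.64 on comfrey and from 10.25 to 10.88 in controls, and 6 of 8 comfrey-fed males were below every control. ITGAV, the integrin alpha V chain, had a larger and more variable difference of -0.92 ± 0.28 (SE), with 7.18, 7.88 and 9.10 on comfrey against 8.29, 8.96 and 9.47. The groups overlapped. MC1R, the melanocortin receptor best known for plumage colour, differed by -0.24 and was below every control in 7 of 8 comfrey-fed males. RGCCL differed by -0.41, SOX7, a transcription factor of vessel and blood precursors, by -0.35, and ARHGAP25 by -0.36. The cell cycle gene CDCA3 differed by -0.26, the ephrin receptor EPHB1 by -0.22 and the endosomal adaptor RAB11FIP3 by -0.21. All had an adjusted p of 0.522 by limma.

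**Figure D2:**
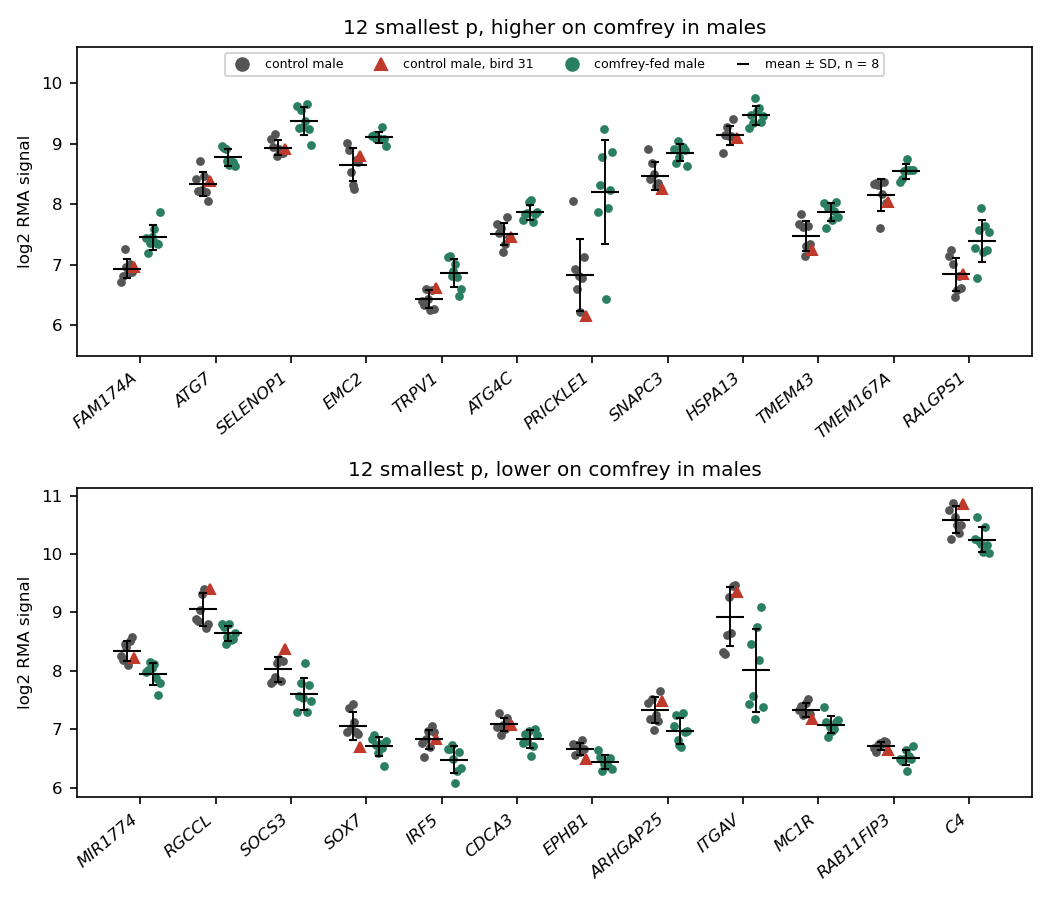
Log2 signal of the 12 named genes with the smallest p on the higher side (top) and on the lower side (bottom) among bright probe sets, 1 point per male, bird 31 as a triangle, bars for the mean ± SD (n = 8). The 2 diets overlap in each gene shown, and PRICKLE1 and ITGAV have the widest spread.

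Among named genes with an unadjusted p under 0.05, the largest differences lay mostly among dim ones. IL6ST, the gp130 receptor chain shared by the interleukin 6 family, had 1.43, 2.04 and 3.95 (lowest, median and highest) on comfrey and 2.50, 3.80 and 5.77 in controls, a difference of -1.68 ± 0.41 (SE). ENPP2, which encodes autotaxin, the enzyme that makes lysophosphatidic acid, had 1.34, 2.52 and 4.55 against 3.80, 4.60 and 5.55, a difference of -1.66 ± 0.45 (SE). For both genes the diets overlapped, and the adjusted p was 0.522 by limma. Differences of -0.98 for SLC6A15, a neutral amino acid transporter, -0.97 for GRIA4, a glutamate receptor subunit, and -0.86 for ANKS6 followed on the lower side.

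On the higher side LACTB2, a mitochondrial endoribonuclease, differed by 1.24 ± 0.57 (SE), yet its control range of 4.70 to 9.00 enclosed the comfrey range of 7.50 to 8.76. CUL4A, the scaffold of a ubiquitin ligase family, differed by 1.09 ± 0.31 (SE), with 5.32, 6.12 and 6.53 on comfrey against 3.73, 5.14 and 6.11. ABCB1, the drug efflux pump P-glycoprotein, differed by 1.02 ± 0.40 (SE), and by 0.74 without bird 31, whose signal of 2.95 was the lowest. MTERF3, a regulator of mitochondrial transcription, and IFT20, a transport protein of cilia, differed by 1.06 each. Their adjusted p-values by limma lay between 0.522 and 0.54.

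The counts of the gene lists below are read against all 9286 single-gene probe sets, of which 47.6% had a difference above 0, 4.70% were higher and 3.75% lower at an unadjusted p under 0.05. Among the bright ones these shares were 60.1%, 6.99% and 2.09%, and among the dim ones 33.3%, 2.09% and 5.64%. The lists and their members were chosen with earlier results of these data known, so the shares describe the lists and do not test them.

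Genes of protein synthesis had mostly positive differences. Of 33 measured cytosolic ribosomal protein genes, 33 had a difference above 0 and the list median was 0.15, beside a median of -0.009 over 9286 single-gene probe sets and 0.032 over the bright ones among them, which were positive in 60.1%. Of the 33, 6 (18.2%, against 6.99% of bright genes) were higher at an unadjusted p under 0.05 and 0 passed the adjustment by limma. RPL23 had 10.99, 11.43 and 11.82 (lowest, median and highest) on comfrey and 10.91, 11.03 and 11.40 in controls, a difference of 0.29 ± 0.11 (SE). RPS16 differed by 0.26, RPL38 by 0.25, RPL37 by 0.20 and RPL12 by 0.35. Every one of these genes overlapped between the diets.

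The mean signal over the 33 ribosomal genes was 10.06, 10.29 and 10.64 (lowest, median and highest) in comfrey-fed males and 9.83, 10.19 and 10.34 in controls. Bird 31 was the lowest of the 16 and bird 14, on comfrey, the highest. Without bird 31 the median difference was 0.091, with 31 of 33 genes positive, and with the bright-dim gap as a covariate it was 0.13, with 32 of 33 positive. In females the median was -0.056, with 11 of 33 positive. The mean diet difference in males was 0.0465 in birds 1 to 16 and 0.18 in birds 17 to 32. The first set holds 4 comfrey-fed males and only 2 controls, and the second holds 4 and 6, with bird 31 among the 6. These unequal sets also underlie the splits by bird number given for other lists. Because these genes move together within a bird, the 33 signs are not 33 separate observations.

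Other parts of the translation and energy machinery had smaller medians. Mitochondrial ribosomal proteins had 31 of 42 genes positive (73.8%, against 60.1% of bright genes) with a median of 0.073, and 5 higher (11.9%, against 6.99%) and 1 lower at an unadjusted p under 0.05. MRPL19 differed by 0.40 ± 0.12 (SE), MRPL33 by 0.38, MRPS36 by 0.28 and MRPS27 by 0.25, while MRPL18 differed by -0.61. Translation initiation and elongation factors had 31 of 44 positive (70.5%) with a median of 0.071, 5 higher (11.4%, against 6.99% of bright genes) and 0 lower. They were EIF2S3 at 0.40 ± 0.14 (SE), EEF2K, the kinase that inhibits elongation, at 0.30, EIF3M at 0.27, EIF5A2 at 0.22 and EEF1A1, the carrier of aminoacyl-tRNA, at 0.20. With the bright-dim gap as a covariate the medians of these lists were 0.015, with 24 of 42 positive, and 0.025, with 26 of 44 positive. In that fit 2 mitochondrial ribosomal genes were higher and 0 lower at an unadjusted p under 0.05. Of the translation factors 2 were higher and 1 lower.

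Respiratory chain and ATP synthase genes had 37 of 50 positive (74.0%, against 60.1% of bright genes) with a median of 0.040, and 0.025 without bird 31. Of these genes 5 (10%, against 6.99%) were higher and 1 lower at an unadjusted p under 0.05. ATP5S, a coupling factor of the ATP synthase, had the smallest p-value of the list, with signals from 6.11 to 6.61 on comfrey against 5.78 to 6.14 in controls, a difference of 0.38 ± 0.079 (SE), adjusted p 0.522 by limma. In it 7 of 8 comfrey-fed males exceeded every control. NDUFA4 differed by 0.28 ± 0.086 (SE), UQCRHL of complex III by 0.45 and COX6A1 of complex IV by 0.79 ± 0.35 (SE). The lower gene was ATP5F1AW, the W-linked copy of an ATP synthase subunit, at -0.33 in these males, which carry no W chromosome. Proteasome subunits had 20 of 28 positive with a median of 0.062, or 0.039 without bird 31, and 0 reached an unadjusted p under 0.05. With the bright-dim gap as a covariate, both medians were -0.005, with 23 of 50 and 14 of 28 genes positive. In that fit 3 respiratory genes were higher and 1 lower at an unadjusted p under 0.05. None of the genes of these 2 lists passed the adjusted test by limma.

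Endoplasmic reticulum folding and unfolded protein response genes had 19 of 29 positive (65.5%, against 60.1% of bright genes), with a median of 0.089, and 0.053 without bird 31. At an unadjusted p under 0.05, 4 (13.8%, against 6.99%) were higher and 0 lower. Beside EMC2, these were CANX, the lectin chaperone calnexin, at 0.44 ± 0.20 (SE), SDF2L1, a partner of the chaperone BiP, at 0.27 ± 0.10 (SE), and the disulfide oxidase ERO1B at 0.21. With the gap as a covariate the median was 0.027, and 2 genes were higher and 2 lower at an unadjusted p under 0.05. The mean diet difference of this list was 0.0088 in birds 1 to 16 and 0.14 in birds 17 to 32. Cytosolic heat shock and chaperone genes had 12 of 29 positive and a median of -0.016, or -0.0045 without bird 31 and -0.031 with the gap. HSPA13 was the 1 higher gene (3.45%, against 6.99% of bright genes) at an unadjusted p under 0.05. Autophagy genes had 11 of 18 positive (61.1%, near the 60.1% of bright genes) and a median of 0.029. Without bird 31 it was 9 of 18 and 0.0096, and with the gap as a covariate 9 of 18 and 0.0021. At an unadjusted p under 0.05, 4 (22.2%, against 6.99%) were higher and 0 lower. The list was chosen with earlier results of these data known, so that share is a description only. LAMP2, a membrane protein of the lysosome, joined ATG7 and ATG4C with a difference of 0.22 ± 0.071 (SE), from 10.81 to 11.34 against 10.76 to 10.93, and ATG14, a subunit of the kinase complex that starts the autophagosome, with 0.18.

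Antioxidant genes and targets of NRF2, the transcription factor that answers electrophiles, had 18 of 31 positive (58.1%, near the 60.1% of bright genes) with a median of 0.010. The median was 0.032 without bird 31 and 0.029 with the gap as a covariate. The mean signal over the list was 8.46, 8.52 and 8.57 (lowest, median and highest) on comfrey. In controls it was 8.35, 8.46 and 8.48, so the groups overlapped in part. Its mean diet difference was 0.053 in birds 1 to 16 and 0.076 in birds 17 to 32. At an unadjusted p under 0.05, 5 (16.1%, against 6.99%) were higher and 1 (3.23%, against 2.09%) lower. GPX4, the peroxidase that reduces lipid peroxides in membranes, had 8.33, 8.85 and 9.13 (lowest, median and highest) on comfrey and 7.44, 8.05 and 8.89 in controls. The groups overlapped, and the difference was 0.65 ± 0.20 (SE), adjusted p 0.522 by limma. TXNRD3, a thioredoxin reductase, differed by 0.22 ± 0.064 (SE), and PGD, an NADPH-producing enzyme of the pentose phosphate pathway, by 0.31 ± 0.099 (SE). GPX3, the secreted peroxidase, was lower, with 6.42 to 6.84 on comfrey against 6.80 to 7.02 in controls, a difference of -0.21 ± 0.071 (SE) that placed 7 of 8 comfrey-fed males below every control. Members of the glutathione peroxidase family thus stood on both sides, and none passed the adjusted test by limma.

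Xenobiotic receptors and enzymes, among them the P450 enzymes that handle plant alkaloids, had 15 of 35 positive and a median of -0.032, or -0.0055 without bird 31. At an unadjusted p under 0.05, 2 were higher and 2 lower, 5.71% each against 4.70% and 3.75% of all single-gene probe sets. AHR1A, an aryl hydrocarbon receptor, had 5.92, 6.08 and 6.34 on comfrey and 5.07, 5.76 and 6.06 in controls, a difference of 0.42 ± 0.13 (SE), and 5 of 8 comfrey-fed males exceeded all controls. ABCB1 is given above. AOX1, aldehyde oxidase, differed by -0.21 and NR1H4, the bile acid receptor, by -0.18. Both had dim signals, as had AHR1A and ABCB1. With the gap as a covariate the list's median was 0.055, with 21 of 35 positive.

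Genes of the DNA damage response and p53 targets had 12 of 20 positive (60.0%, near the 60.1% of bright genes) and a median of 0.029, or 0.013 with the gap as a covariate. Of the 20, 2 were higher and 2 lower at an unadjusted p under 0.05, 10.0% each. These shares were 4.70% and 3.75% of all single-gene probe sets, and 6.99% and 2.09% of bright ones. CDKN1A, the p53-induced inhibitor of cyclin-dependent kinases, had 7.56, 7.78 and 7.94 on comfrey and 7.74, 8.10 and 8.48 in controls, a difference of -0.31 ± 0.11 (SE). PPM1D, a phosphatase that p53 induces, differed by -0.16 ± 0.063 (SE), with 6 of 8 comfrey-fed males below every control. BTG2, another p53 target, differed by 0.22 and the damage-sensing kinase ATR by 0.29. These p53 targets thus had differences of both signs. Cell cycle and replication genes had 12 of 27 positive and a median of -0.042, or -0.089 with the gap. MCM10 at 0.27 and RRM1 at 0.26 stood on the higher side and GINS1 at -0.26 on the lower. In this list 2 genes (7.41%) were higher and 1 (3.70%) lower at an unadjusted p under 0.05. The shares above, of all single-gene probe sets and of bright ones, apply here too. With the gap as a covariate 2 genes of this list were higher and 4 lower at that level.

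Interferon-stimulated genes were far higher in bird 31 than in most other males, and their diet differences were smaller without it. Interferons switch on antiviral effectors in most cells, and these genes vary with infection and vaccination. Of 24 measured antiviral effectors, 24 had a difference below 0, the list median was -0.31, and 0 reached an unadjusted p under 0.05. The mean signal of the list was 8.62, 8.88 and 9.89 (lowest, median and highest) in comfrey-fed males and 8.52, 9.25 and 11.11 in controls. Bird 31 held the 11.11, the next control 9.43, and bird 6, on comfrey, the 9.89, so the groups overlapped. Without bird 31 the median difference was -0.077, with 7 of 24 positive, and with the gap as a covariate it was -0.34, with 0 positive. Without birds 6 and 31, a choice made after the data were seen, it was -0.21 with 1 of 24 positive. In females 16 of 24 were positive, with a median of 0.063. Many of these genes move together within a bird, so the 24 signs are not 24 separate observations. The list also holds IFITM5 and CCL19, which in bird 31 were only 0.25 and 0.12 above the median of the other controls. The median of that excess over the list was 2.27. The list's mean diet difference in males was 0.15 in birds 1 to 16, which include bird 6. It was -0.56 in birds 17 to 32, which include bird 31.

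Bird 31 was the highest male in 20 of the 24, and in 827 of all 9286 single-gene probe sets. The bird had been singled out for its interferon genes, so the count of 20 carries that choice. MX1, a GTPase that blocks viruses, was 11.99 in bird 31 against 5.85, 8.06 and 8.94 (lowest, median and highest) in the other 7 controls. Its diet difference was -1.22 ± 0.71 (SE) with bird 31 and -0.72 without it, with adjusted p-values of 0.594 and 0.764 by limma. OASL, of the oligoadenylate synthetase family, had -0.45 with bird 31 and 0.037 without it. In CMPK2, a nucleotide kinase induced by interferon, the difference went from -0.60 to -0.30, in HELZ2, a helicase, from -0.77 to -0.43, and in EPSTI1 from -0.68 to -0.33. The other genes far above the remaining controls in bird 31 included CH25H, which makes an antiviral sterol, at 9.65 against 5.15 to 6.55, the RNA helicase MOV10 at 10.76 against 6.50 to 7.69, SOCS1, an inhibitor of interferon signalling, at 10.32 against 5.40 to 7.91, and NMI at 11.57 against 6.51 to 9.56.

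**Figure D3:**
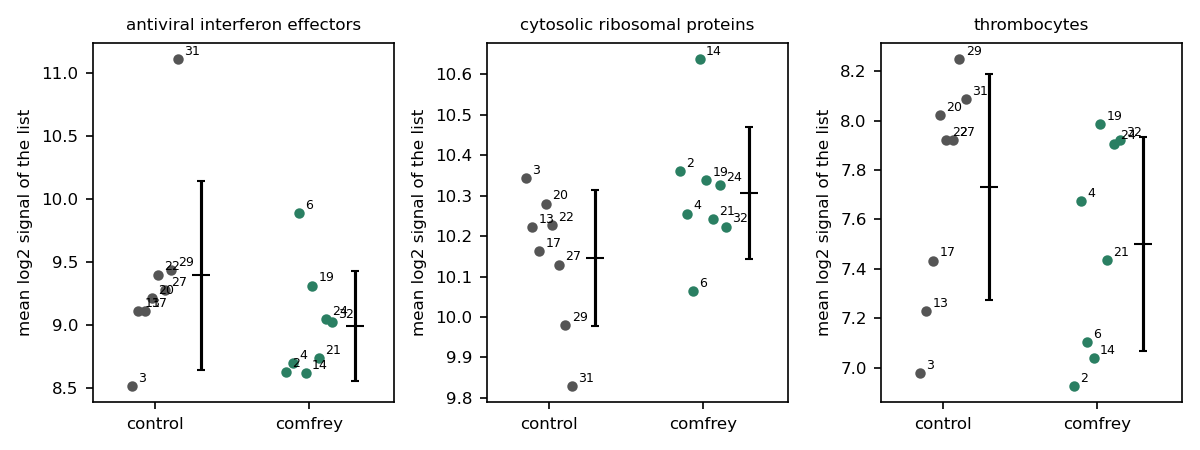
Mean log2 signal over 3 gene lists in each male, labelled with the bird's number, with group means ± SD (n = 8) as bars. Bird 31 is highest for antiviral interferon effectors (11.11) and lowest for cytosolic ribosomal proteins (9.83), and the diets overlap in all 3 panels.

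Interferon sensors and regulators had 5 of 20 positive and a median of -0.070, and -0.048 without bird 31 or -0.088 with the gap. At an unadjusted p under 0.05, 3 genes (15.0%, against 2.09% of bright genes) were lower and 1 (5.00%, against 6.99%) higher. The lower ones were SOCS3, IRF5 and CD274. CD274, the checkpoint ligand PD-L1, differed by -0.34, and by -0.22 without bird 31. Without that bird 2 genes of the list were lower and 1 higher at that level. TBK1, the kinase that activates interferon transcription factors, was the 1 higher gene at 0.18 ± 0.069 (SE). MHC class I presentation had 3 of 9 positive and a median of -0.14, or -0.057 without bird 31 and -0.13 with the gap. At that level CANX was the 1 higher gene and TAP1 the 1 lower gene, 11.1% each against 6.99% and 2.09% of bright genes. TAP1, the peptide transporter, differed by -0.48 ± 0.22 (SE), or -0.33 without bird 31. Without that bird the MHC class I list had 1 higher and 0 lower genes at that level. Cytokines, chemokines and receptors had 20 of 46 positive and a median of -0.074, or -0.0070 with the gap, with 0 higher and 2 (4.35%, against 3.75% of all single-gene probe sets) lower, which were IL6ST and TNFSF15, a TNF-family cytokine, at -0.31 ± 0.10 (SE). NF-kappaB and inflammatory signalling genes had 16 of 23 positive and a median of 0.023, or 0.0024 without bird 31 and 0.010 with the gap. At an unadjusted p under 0.05, 3 of them (13.0%, against 6.99% of bright genes) were higher and 1 (4.35%, against 2.09%) lower. Without bird 31, the lowest male for this list, 1 was higher and 1 lower. With the gap as a covariate these counts were 0 and 0. The list's mean diet difference was -0.083 in birds 1 to 16 and 0.10 in birds 17 to 32. Within this list NFKB1 differed by 0.28, TRAF3 by 0.32 and LTA4H, which makes leukotriene B4, by 0.27, while TNFAIP2 differed by -0.28.

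Marker lists of blood cells gave no gene past the adjusted test by limma. Thrombocyte genes had 2 of 15 positive and a median of -0.18, with 0 at an unadjusted p under 0.05. Their mean signal was 6.93, 7.55 and 7.98 (lowest, median and highest) on comfrey and 6.98, 7.92 and 8.25 in controls, so each diet covered nearly the same range. The list also moved with bird number, at 6.93 to 7.67 in the 6 birds numbered 1 to 16 and 7.43 to 8.25 in the 10 birds numbered 17 to 32, which hold 6 of the 8 controls and 4 of the 8 comfrey-fed males. Within these sets the mean difference was 0.082 and -0.13, and the list median was -0.044 with bird number as a covariate. F13A1, the clot-stabilising factor XIII subunit, differed by -0.65 ± 0.47 (SE), ITGB3 by -0.45 and PLEK by -0.49. With the gap as a covariate 6 of 15 were positive and the median was -0.26. Cytotoxic and natural killer genes had 2 of 8 positive and a median of -0.13, and -0.22 without bird 31, with GZMA, the protease granzyme A, at -0.59 ± 0.45 (SE). With the gap as a covariate that list had 1 of 8 positive and a median of -0.41. In females 8 of those 8 were positive. Across the alternatives the male median of the cytotoxic list ran from -0.41 to 0.040. This list also moved with bird number, with a mean of 6.12 in birds 1 to 16 and 6.91 in birds 17 to 32. Within these sets its mean diet difference was -0.21 and 0.20.

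Erythroid genes had 14 of 22 positive and a median of 0.020, and their mean signal was 10.08 to 10.35 on comfrey and 9.78 to 10.44 in controls. SLC25A37, the iron importer of mitochondria, was the 1 gene at an unadjusted p under 0.05 (4.55% lower, against 2.09% of bright genes). It had 8.37, 8.87 and 9.22 on comfrey against 8.84, 9.19 and 10.02, a difference of -0.46 ± 0.17 (SE). With the gap as a covariate the erythroid median was 0.029. Iron handling genes had 10 of 15 positive, 11 with the gap, and 0 past that level. T cell genes had 10 of 16 positive, with CD2 at 0.32 and CD8BP at -0.22, B cell and class II genes 4 of 14, heterophil genes 6 of 8, and monocyte and macrophage genes 4 of 14. The medians of the erythroid and T cell lists turned sign without bird 31, to -0.017 and -0.015, and that of the T cell list was -0.069 with the gap as a covariate. Of 3 W-linked genes 1 was positive. The part of cell makeup in any gene difference was not tested.

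Amino acid breakdown genes had 16 of 25 positive and a median of 0.091, with 3 (12.0%, against 4.70% of all single-gene probe sets and 6.99% of bright ones) higher and 0 lower at an unadjusted p under 0.05. HIBCH, of valine breakdown, had 8.75, 8.91 and 9.03 on comfrey and 8.50, 8.62 and 8.81 in controls, a difference of 0.26 ± 0.073 (SE), and 5 of 8 comfrey-fed males exceeded every control. OAT, ornithine aminotransferase, differed by 0.67 ± 0.24 (SE) and MCCC2, of leucine breakdown, by 0.26. In females the list's median was -0.075, and with the gap as a covariate in males it was 0.066. With the gap 1 gene was higher and 0 lower at an unadjusted p under 0.05. Its mean diet difference was -0.062 in birds 1 to 16, which hold 2 controls, and 0.16 in birds 17 to 32. Fatty acid oxidation and fuel choice had 15 of 24 positive and a median of 0.082, with ACAA2, the last enzyme of mitochondrial beta-oxidation, at 0.27 ± 0.099 (SE), and a median of -0.018 with the gap as a covariate. The mean diet difference of the fatty acid oxidation list was -0.064 in birds 1 to 16 and 0.073 in birds 17 to 32. Cholesterol and fatty acid synthesis had 11 of 21 positive and glycolysis 10 of 17.

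Calcium, phosphate and vitamin D genes had 7 of 30 positive and a median of -0.048, but 16 of 30 and 0.0074 with the gap as a covariate. ALPL, the tissue-nonspecific alkaline phosphatase that bone uses for mineralisation, had 6.45, 6.60 and 6.96 on comfrey and 6.72, 6.94 and 7.03 in controls. The difference was -0.25 ± 0.081 (SE), and 6 of 8 comfrey-fed males were below every control. The vitamin D hydroxylases CYP2R1 and CYP27A1 had differences of opposite sign, 0.47 ± 0.18 (SE) and -0.23 ± 0.10 (SE). Glucocorticoid targets had 4 of 8 positive, with SGK1, a kinase that glucocorticoids induce, at -0.18 ± 0.067 (SE) and 6 of 8 comfrey-fed males below every control. Adjusted p-values of these 4 genes lay between 0.522 and 0.536 by limma.

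**Figure D4:**
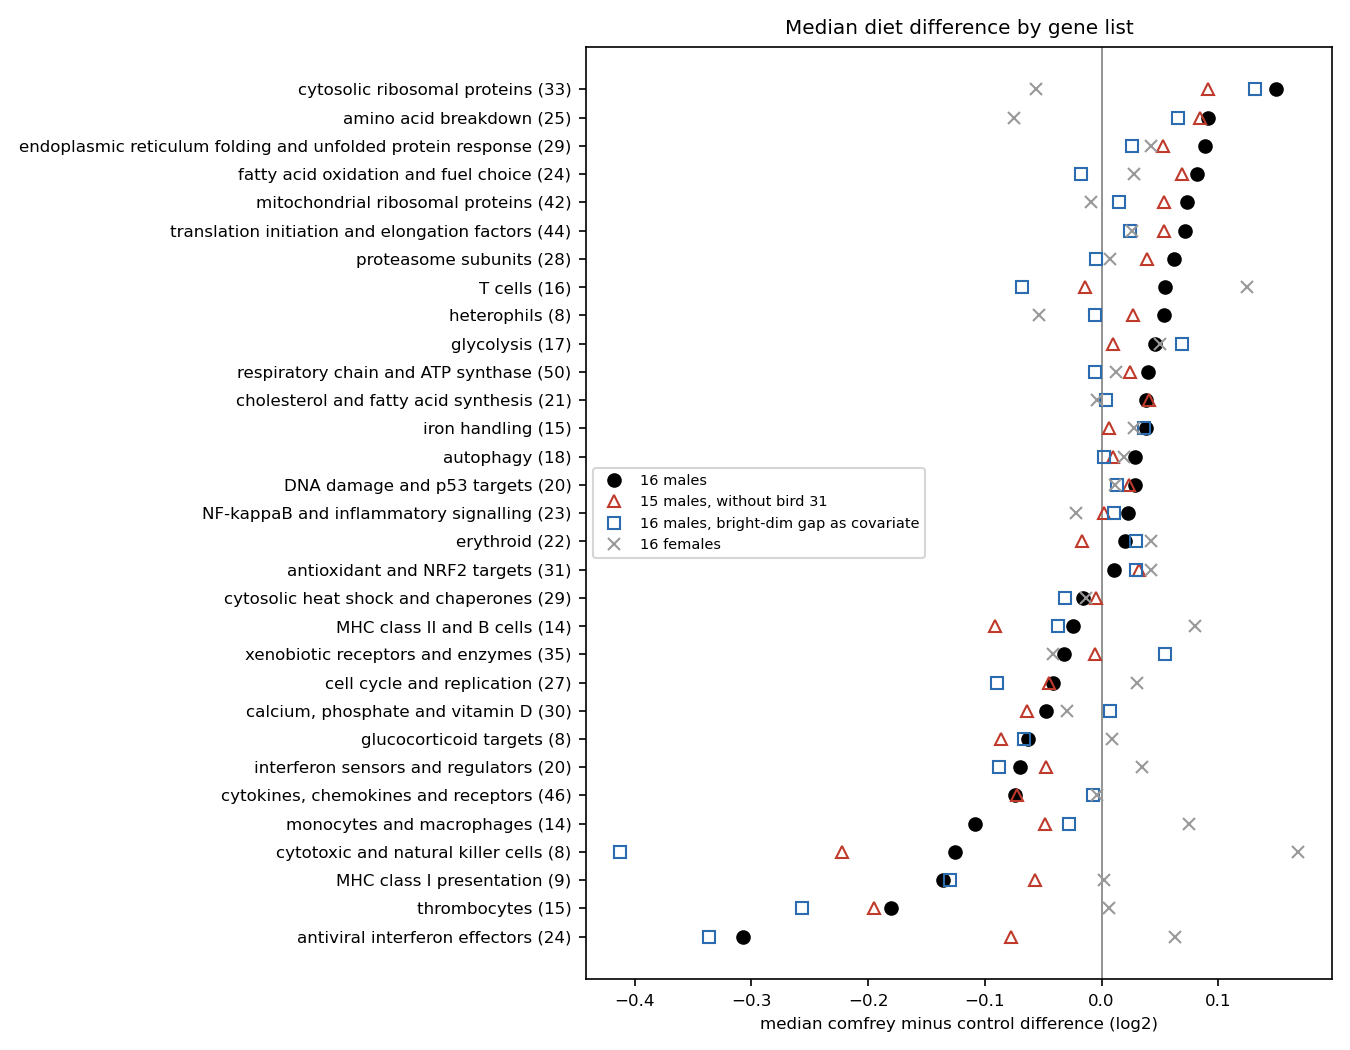
Median comfrey minus control difference (log2) over each gene list, with the number of genes measured, in 16 males, in males without bird 31, in 16 males with the bright-dim gap as a covariate, and in 16 females. Cytosolic ribosomal proteins have the highest male median (0.15) and antiviral interferon effectors the lowest (-0.31), which is -0.077 without bird 31.

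Whether the diet difference in males was unlike that in females was tested for every probe set on all 32 arrays. None passed an adjusted p of 0.05 (0 of 17894, 0%) by limma, the lowest adjusted p was 0.434, and 1020 probe sets had an unadjusted p under 0.05. SELENOP1 differed by 0.44 in males and -0.22 ± 0.11 (SE, n = 8 and 8) in females, and the male minus female difference was 0.65, adjusted p 0.488 by limma. ATG7 had 0.44 and -0.17 ± 0.11 (SE), an adjusted p of 0.503 for the difference. CUL4A had 1.09 and -0.81 ± 0.32 (SE), with 0.488. PCCB, a subunit of propionyl-CoA carboxylase, had 0.15 and -0.33 ± 0.080 (SE), again with 0.488. SELENOP1, ATG7, CUL4A and PCCB were all named by rules that use male values, PCCB by its male p within a gene list. The male minus female difference contains those values, so it carries that choice.

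Some leading genes of males had the same sign in females. HSPA13 differed by 0.34 in males and 0.23 ± 0.083 (SE) in females, ATG4C by 0.36 and 0.17 ± 0.086 (SE), EMC2 by 0.45 and 0.17 ± 0.11 (SE), and ENPP2 by -1.66 and -1.04 ± 0.47 (SE). LACTB2 had 1.24 and 1.40 ± 0.57 (SE). FAM174A, PRICKLE1 and GPX4 had female differences of -0.073, -0.049 and -0.016, each smaller than its standard error. These genes were chosen on the male difference, so female values smaller than the male ones carry that choice. Only LACTB2 had the larger value in females. The adjusted interaction p of each gene was 0.847 or higher by limma.

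**Figure D5:**
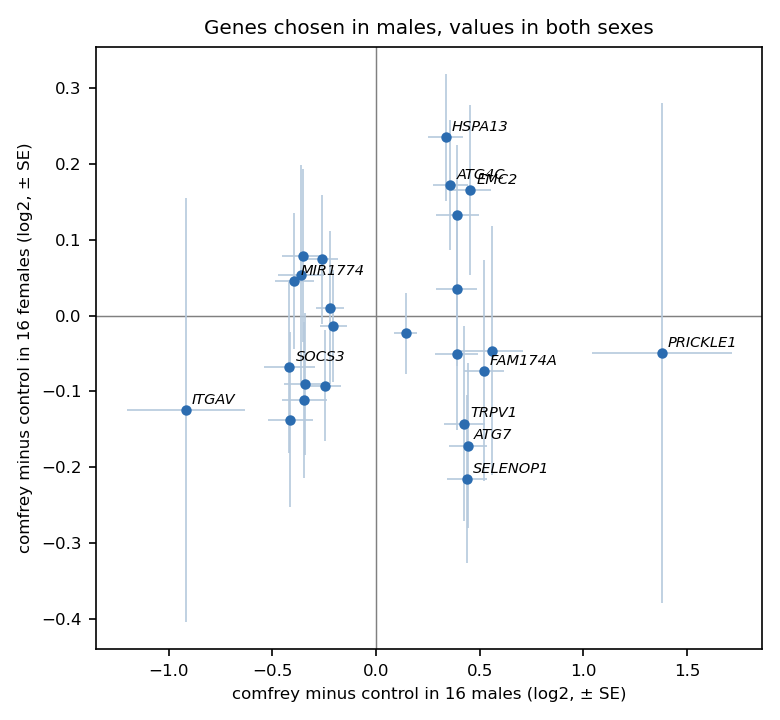
Comfrey minus control difference (log2, ± SE) in 16 males (horizontal) and 16 females (vertical) for YME1L1 and the 24 bright genes with the smallest p in males, 11 of them labelled. HSPA13, ATG4C and EMC2 lie above 0 in both sexes, and SELENOP1 and ATG7 lie on opposite sides.

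The main axis of variation among the males did not follow the diet beyond the spread between birds. The first principal component held 19.5% of the variance, its mean score differed by -14.7 between comfrey-fed and control males, and the exact two-sided permutation p was 0.151 over 12870 splits. Without bird 31 the difference was -11.6, with an exact permutation p of 0.289. From bright probe sets alone it was -11.2, with an exact permutation p of 0.0769. The score mostly fell as the bright-dim gap of the array rose. Bird 3 had the smallest gap, 2.73, and the highest score, 31.1, and bird 19 the largest gap, 3.05, and the lowest score, -34.7. The gap and this component are thus not separate results.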

How the data were processed

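The authors deposited log2 values of a whole-transcript chicken array, made with GCOS 1.1.1 and RMA per the submitters' processing notes. RMA subtracts background, equalises arrays and summarises probes, so levels of different probe sets are not comparable, and dim differences are compressed. Of 20804 rows, 2910 blank in every array were left out. Symbols come from GEO's platform annotation, updated through RefSeq (9770 by gene ID, 474 by symbol, 15 by synonym, 5 unmatched). A gene in a list was read through its probe set with the highest mean over the 16 males. The fit was limma 3.58.1 in R 4.3.3 (two-sided, adjusted over all 17894 probe sets) on the males alone, checked on simulated data. Of 200 differences placed at each size, it recovered 9.5% of those of 0.25, 51.5% of those of 0.5 and 91.5% of those of 1. Most differences of 0.25 were thus missed there. The differences of all sizes were placed together, with noise drawn separately for each probe set. In addition, 17 probe sets without a placed difference were called. The real comparison has fewer calls and variation shared within a bird, so these rates may overstate what it could detect. The interaction used all 32 arrays. Arrays have no read depth, and 8 birds a group limit the precision. Labels do not say which birds shared a pen or an extraction, so p-values cover the spread between birds only.

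Named genes were the 12 smallest p-values per direction among bright genes (signal above the median), the 6 largest differences per direction with an unadjusted p under 0.05, non-overlapping genes, genes far off in bird 31, the 5 smallest p per list, and leading genes without bird 31. The members and 32 lists were chosen with earlier results of these data known. Alternatives left out each bird in turn, changed scaling, filter, variance model and weights, or added bird number, number block or residual components. A planned motif search in promoters was not run, because no promoter sequences were used here.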

Additional observations from a re-analysis of the deposited data

Results flagged for a closer look

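Within the 2 diet groups, 298 sets of 8 values were examined for a bird far from the rest by Dixon's test. It marked 23. In unselected sets chance marks about 1 in 20, but many of these were chosen with their values known, among them genes picked because bird 31 is far off, so that rate does not apply. Bird 31 accounts for 11 of the 23. In that control male the mean signal of antiviral interferon effectors was 11.11, of interferon sensors and regulators 9.4 and of MHC class I presentation 9.7, each the highest of the controls. Its single genes at the top were HELZ2 at 12.96, CMPK2 at 13.38, OASL at 12.13, CH25H at 9.65, MOV10 at 10.76 and EPSTI1 at 12.75. Its signals of YME1L1, 11.19, and of the initiation factor EIF3M, 8.37, were the lowest of the controls.

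Bird 6, a comfrey-fed male, was far above the other comfrey-fed males in OASL at 10.68 (next 8.3), CMPK2 at 11.98 (next 10.96) and EPSTI1 at 11.34 (next 9.91). The other 9 were spread over 6 birds. On comfrey they were IL6ST in bird 2 at 3.95, TBK1 in bird 21 at 9.48, and TRAF3 at 7.11 and the mean of MHC class II and B cell genes at 7.58 in bird 24. Among controls they were TMEM167A at 7.61 and NR1H4 at 4.72 in bird 20, ACAA2 in bird 29 at 8.22, and the means of the antioxidant list at 8.35 and the xenobiotic list at 5.67 in bird 27.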

How the results depend on the processing

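The count of 0 probe sets past an adjusted p of 0.05 by limma held in the alternatives run, with these exceptions. Leaving out 1 bird at a time gave 0 to 1, the 1 being the unnamed probe set without the comfrey-fed male bird 32 (comfrey replicate 8, adjusted p 0.0082). When the first residual component was added to the fit 2 passed, that probe set and IL6ST (adjusted p 0.0406). The mean signal of IL6ST, 3.06, is near background. The count at an unadjusted p under 0.05 was 2580 with that component (1098 higher and 1482 lower), 938 among bright probe sets alone, 1008 with the bright-dim gap as a covariate and 1213 to 2192 with 1 bird left out. Fully separated probe sets numbered 4 without bird 31. Of 117 genes followed through the alternatives, 1 changed sign, OASL, which ranged from -0.789 to 0.037 with 1 bird left out and was 0.037 without bird 31. Dim genes among the 117 were absent from the fit of bright probe sets alone. Of the genes picked for their level in bird 31 and not followed there, SLBP went from -0.20 to 0.27, PKP3 from -0.30 to 0.027, KCTD1 from -0.37 to 0.0066 and NAMPTP1 from -0.31 to 0.042 without it. Subtracting array medians moved the median of all probe sets to 0.0036. No paired analysis was possible because the replicate numbers were given in accession order and do not pair birds across diets. The interaction gave 0 in the 4 settings run. The cause of these changes was not tested.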
